A study of Mus musculus with 12 samples.

Results

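Expression of 10 genes that control the G1 phase of the cell cycle was described in a set of 12 mRNA-seq libraries: the D-type cyclins Ccnd1, Ccnd2 and Ccnd3, the E-type cyclins Ccne1 and Ccne2, the cyclin-dependent kinases Cdk2, Cdk4 and Cdk6, and the kinase inhibitors Cdkn1b and Cdkn2c. They were matched by gene symbol in a table of 54345 genes, and all 10 were present. The 10 genes were selected on their FPKM (fragments scaled to gene length and library size) in these same groups, so their levels and fold changes are given as a description, with no p-value. Other genes of the pathway are tested in a later part of the text. Their list was fixed with earlier results of these data known, so those p-values are not an independent test.

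The cells were H9c2(2-1), a line derived from embryonic rat heart, labelled as wild-type myoblasts. All 4 groups shared this 1 line, and no group carried an introduced allele. Untreated cells (Unt), cells given doxorubicin (DOX), cells given doxorubicin with dexrazoxane (D_DXZ) and cells given doxorubicin with magnesium hexacyanoferrate nanocatalysts (D_MgHCF) were each sequenced in 3 libraries after 6 h of treatment. Doxorubicin is an anthracycline that poisons topoisomerase II and is toxic to the heart, dexrazoxane is the drug used clinically against that toxicity, and the nanocatalysts were the study's candidate protectant. The doses given to the sequenced cells are not given in the sources used here.

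The labels name mouse as the organism and the submitters' processing notes name the mouse genome GRCm38, whereas the line is of rat origin. All gene names and coordinates below are therefore those of the mouse annotation, and how far the species of the reads affects a gene's level was not tested. Of 7 myoblast and skeletal muscle markers, none reached a mean of 1 FPKM over the 12 libraries, and Myod1, Myf5 and Myog were listed at 0 in Unt. Of 7 cardiomyocyte markers only Gata4 did, at a mean of 10.3 FPKM in Unt. The labelled myoblast identity was thus not visible in its defining markers. The summed FPKM of the 7 cardiomyocyte markers ranged from 9.79 to 11 (Unt), 3.14 to 5.82 (DOX), 3.04 to 4.14 (D_DXZ) and 14.8 to 26.4 (D_MgHCF), and that of the myoblast list was 0.766 to 2.83 in all libraries. Endothelial and epithelial markers summed to at most 1.37 FPKM, and leukocyte markers to 0.888 to 1.11 in Unt and 1.98 to 4.79 in the treated groups. The summed FPKM of the 4 fibroblast markers ranged from 35.8 to 37.1 (Unt), 109 to 135 (DOX), 74.2 to 118 (D_DXZ) and 27.7 to 57.1 (D_MgHCF). Col1a1 and Col3a1 made up most of that sum, at means of 20 and 15.6 in Unt and 70.6 and 49.7 in DOX. Pdgfra went the other way, from 0.718 to 0.352, and Thy1 was at most 0.0477. Likewise the leukocyte sum was mostly Cd68. The cardiomyocyte sum was mostly Gata4, whereas Tnnt2 went from 0.133 in Unt to 0.903 in DOX. The part of these lists in the results below was not tested.

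Cells pass from G1 into S phase when cyclin-dependent kinases inactivate the retinoblastoma protein and its relatives, which releases the E2F factors that switch on genes for DNA replication. D-type cyclins bind Cdk4 and Cdk6 and link this step to growth signals, and E-type cyclins then bind Cdk2. Cdkn1b encodes p27, which binds and blocks cyclin-Cdk2 complexes, and Cdkn2c encodes p18, a member of the INK4 family that binds Cdk4 and Cdk6 directly. Adult heart muscle cells have largely left the cell cycle, and cultured H9c2 cells still divide.

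Reads assigned to genes ranged from 16626514 to 19365119 per library, as recovered from the FPKM values, so depth was similar in all groups. D_MgHCF replicate 3 stood apart from the other 2 libraries of its group: its correlation of log2(FPKM + 1) was 0.942 with replicate 1 and 0.964 with replicate 2, which correlated with each other at 0.984, while the lowest correlation within each of Unt, DOX and D_DXZ was at least 0.989. The main D_MgHCF results are also given without that library. Mitochondrially encoded genes took 1.19 to 1.41% of the reads in Unt and 1.76 to 3.27% in the treated groups, and the part of this in the results was not tested. In bulk RNA, a change in the make-up of the cell population and a change of RNA level per cell cannot be told apart.

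Cdk4, Ccnd1, Cdkn1b and Cdkn2c showed the largest differences among the 10 genes. With doxorubicin, Ccnd1 and Cdk4 stood at 4.63 and 3.23 times their untreated mean, and Cdkn1b and Cdkn2c at 0.268 and 0.484 times. With dexrazoxane added, all 4 genes stayed on the same side of Unt as with doxorubicin alone. With the nanocatalysts added, Ccnd1 and Cdk4 were instead below Unt, Cdkn1b was close to it, and Cdkn2c was above Unt in 2 libraries and below it in the third.

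**Figure D1:**
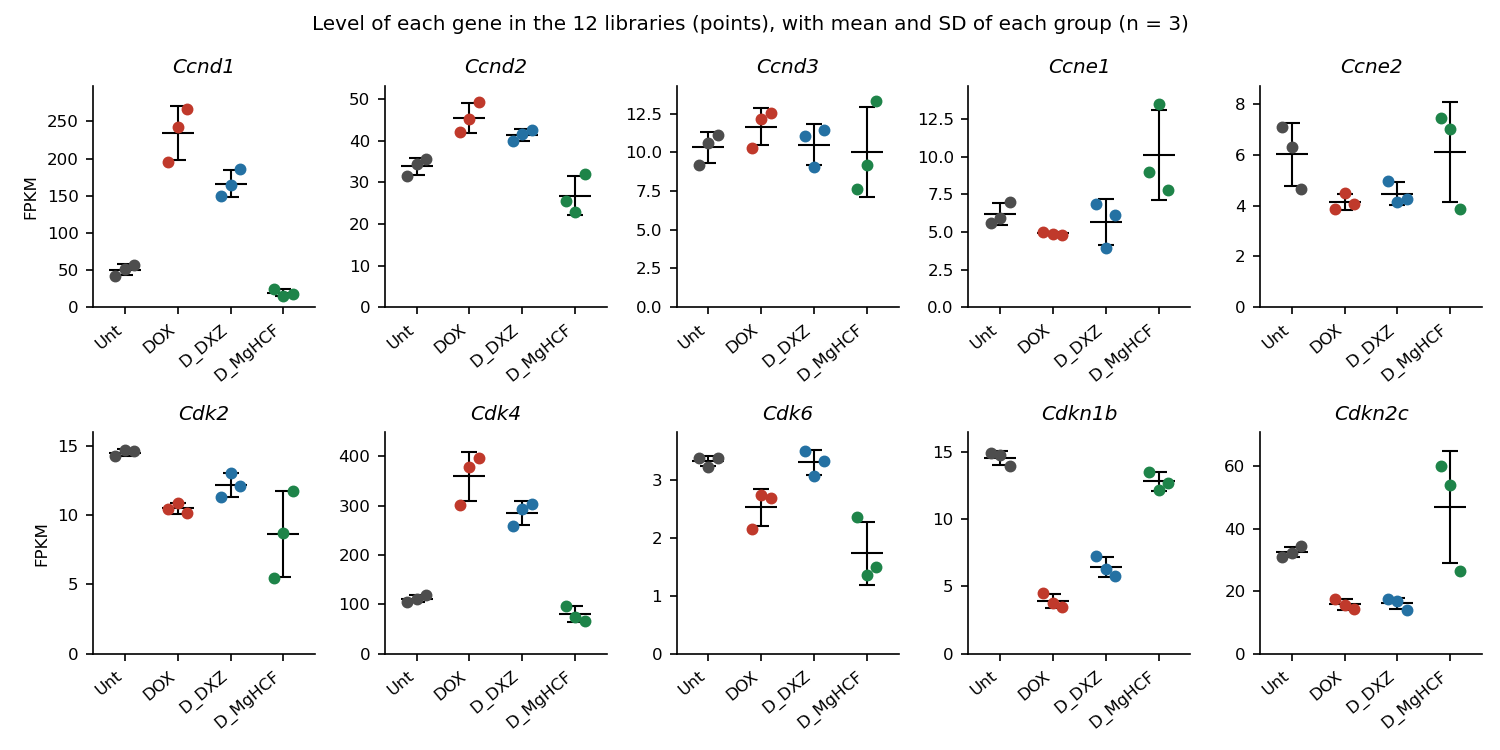
FPKM of each of the 10 genes (linear axis from 0) in the 12 libraries, with points for libraries and bars for the mean and SD of each group of 3. The DOX and D_DXZ points of Ccnd1 and Cdk4 lie above all Unt points and those of Cdkn1b and Cdkn2c below them, and the D_MgHCF points of Cdkn2c spread from 26.6 to 60.2 FPKM.

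Ccnd1, a D-type cyclin induced by growth factors, lies at chr7:144929931-144939925 on the minus strand (GRCm38). Its FPKM was 42.5, 51.9 and 57.4 in the Unt libraries, 195, 242 and 266 in DOX, 149, 164 and 186 in D_DXZ and 24.8, 15.7 and 17.5 in D_MgHCF. The ranges of all 4 groups were separate, in the order D_MgHCF, Unt, D_DXZ and DOX. On the log2(FPKM + 1) scale the difference from Unt was 2.19 ± 0.185 (SE) in DOX, 1.70 in D_DXZ and -1.36 in D_MgHCF, and D_MgHCF differed from DOX by -3.55. Without D_MgHCF replicate 3 the last value was -3.49. The gene shares 1771 bases with Oraov1 on the opposite strand, and without strand information reads there cannot be told apart. Oraov1 had a mean of 2.29 FPKM in Unt, 1.5 in DOX, 1.265 in D_DXZ and 3.65 in D_MgHCF. Its part in the Ccnd1 values was not tested.

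Ccnd2, a D-type cyclin with an overlapping role, lies at chr6:127125162-127152193 on the minus strand. It measured 31.5, 34.5 and 35.6 FPKM in Unt, 42.0, 45.2 and 49.3 in DOX, 39.9, 41.6 and 42.7 in D_DXZ and 25.5, 23.0 and 32.0 in D_MgHCF. DOX and D_DXZ lay above Unt in every library, whereas D_MgHCF overlapped Unt. It differed by 0.41 ± 0.115 (SE) in DOX, 0.28 in D_DXZ and -0.34 in D_MgHCF, all against Unt on the log2 scale, and the last was -0.47 without D_MgHCF replicate 3. The DOX and D_DXZ values changed sign under other library scalings, to -0.51 and -0.46 per summed reads and -0.93 and -0.89 as TPM, as described further on.

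Ccnd3, the third D-type cyclin, lies at chr17:47505051-47599691 on the plus strand and differed least among the 10 genes in its group means with the deposited scaling. Its mean was 10.3 ± 0.998 FPKM in Unt, 11.6 ± 1.20 in DOX, 10.5 ± 1.30 in D_DXZ and 10.0 ± 2.93 in D_MgHCF (SD, n = 3), with all groups overlapping Unt. It shares 361 bases with Bysl on the opposite strand, whose mean was 19.0 FPKM in Unt and 6.77 in D_MgHCF. A processed pseudogene, Ccnd3-ps, matches it over 881 bases at 96.3% identity and stayed at or under a mean of 0.253 FPKM.

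Because these cyclins moved by different amounts, the make-up of the D-type cyclin pool differed between groups. Ccnd1 supplied 53.2 ± 2.02% (SD, n = 3) of the summed FPKM of Ccnd1, Ccnd2 and Ccnd3 in Unt, 80.3 ± 1.24% in DOX, 76.1 ± 1.44% in D_DXZ and 34.5 ± 7.63% in D_MgHCF. In D_MgHCF the leading D-type cyclin was Ccnd2, at 44.0, 48.1 and 51.0% of the pool in replicates 1, 2 and 3, against 42.8, 32.8 and 27.8% for Ccnd1. These shares compare genes within a library, so they do not depend on how libraries were scaled to each other. Counted as reads rather than per length, Ccnd1 supplied 36.7% in Unt, 67.4% in DOX and 21.3% in D_MgHCF, since Ccnd2 is the longer gene.

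**Figure D2:**
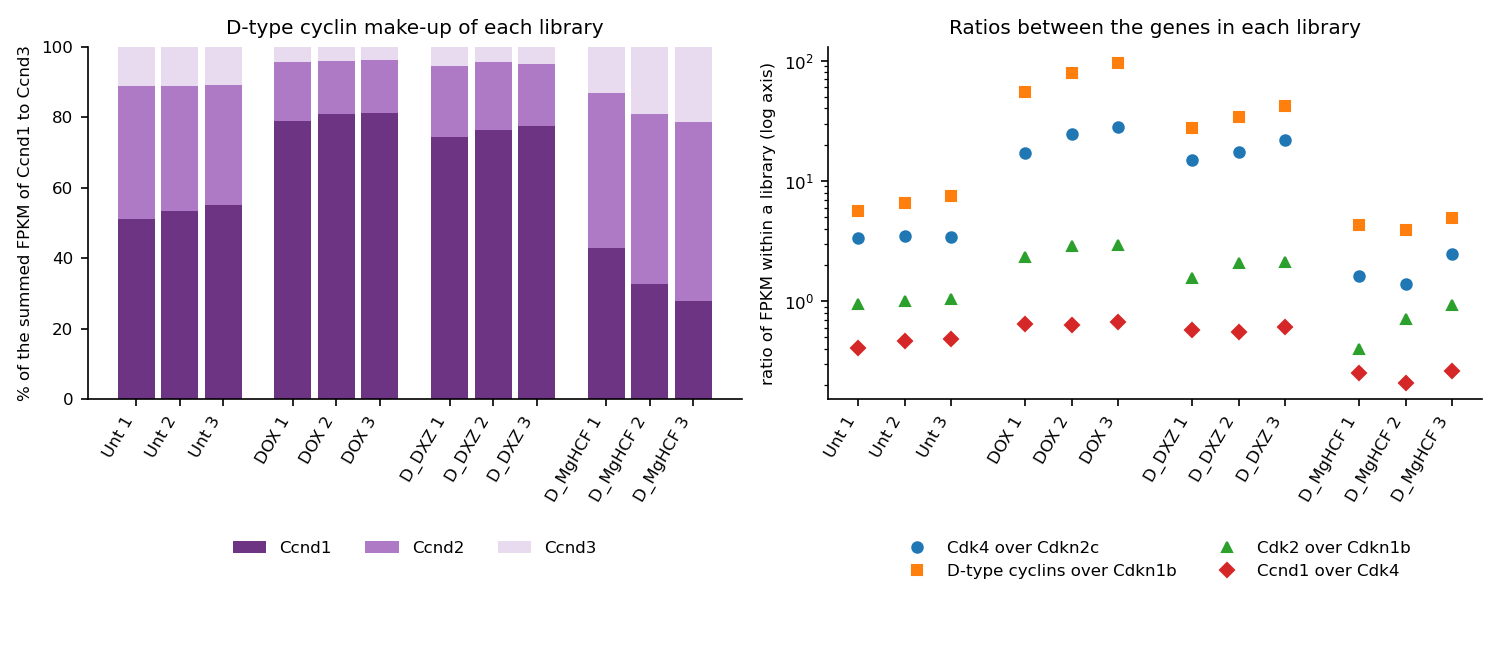
Left, percent of the summed FPKM of the 3 D-type cyclins supplied by each in the 12 libraries; right, ratios of FPKM between genes within each library on a log axis. Ccnd1 supplied 78.9 to 81.2% of the pool in the DOX libraries and 27.8 to 42.8% in the D_MgHCF libraries, and the ratio of Cdk4 to Cdkn2c was 17.2 to 27.8 in DOX and 1.38 to 2.49 in D_MgHCF.

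Cdk4, a kinase partner of the D-type cyclins, lies at chr10:127063534-127067920 on the plus strand and was the highest of the 10 genes in every group. It measured 104, 112 and 118 FPKM in Unt, 302, 378 and 397 in DOX, 258, 294 and 304 in D_DXZ and 97.5, 74.9 and 66.3 in D_MgHCF. All DOX and D_DXZ libraries lay above, and all D_MgHCF libraries below, the Unt range. DOX and D_DXZ overlapped each other. The log2 difference from Unt was 1.68 ± 0.158 (SE) in DOX, 1.35 in D_DXZ and -0.49 in D_MgHCF. Cdk4 shares 641 bases with Tspan31 on the opposite strand, whose mean was 30.5 FPKM in Unt and 46.6 in DOX.

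The rank of Cdk4 within a library barely moved. It stood at the 98.9th to 99.0th percentile of the 25044 genes tested in Unt and at the 98.9th in every DOX library, although its FPKM differed 3.23 times between those means. Ccnd1 stood at the 96.4th to 97.3rd percentile in Unt, at the 98.3rd to 98.4th in DOX and at the 88.5th to 92.5th in D_MgHCF. Cdkn1b moved further in rank, with a median of the 87.2nd percentile in Unt, the 72.7th in DOX, the 77.8th in D_DXZ and the 85.6th in D_MgHCF.

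The promoters of Cdk4 and Cdkn1b are shown because these genes had the largest difference upward and downward in DOX among the members with an entry in the RefSeq promoter table (GRCm38.p6). That table held 7 of the 10 genes, and Ccnd1, Ccnd2 and Ccne2 had no entry. Each line gives the 250 bases before the start site, 5′ to 3′ on the gene's own strand, with motif matches on either strand in capitals.

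Cdk4 (chr10:127063285-127063534, plus strand): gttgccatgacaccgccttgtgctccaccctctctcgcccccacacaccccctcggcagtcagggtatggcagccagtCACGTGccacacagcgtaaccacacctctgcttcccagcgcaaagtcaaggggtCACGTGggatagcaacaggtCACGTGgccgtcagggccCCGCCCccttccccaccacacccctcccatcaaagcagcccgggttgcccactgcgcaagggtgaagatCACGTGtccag
Cdkn1b (chr6:134920151-134920400, plus strand): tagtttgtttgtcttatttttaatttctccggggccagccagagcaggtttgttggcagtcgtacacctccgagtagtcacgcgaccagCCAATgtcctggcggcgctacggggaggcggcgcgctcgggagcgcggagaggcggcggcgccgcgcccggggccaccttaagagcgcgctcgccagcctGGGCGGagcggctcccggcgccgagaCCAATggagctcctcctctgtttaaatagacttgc

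In the Cdk4 window the capitals mark 4 copies of the E-box CACGTG, which Myc and its relatives can bind, and 1 GC box, spelled CCGCCC on this strand. Of all 32851 promoter windows of this length, 6.02% held at least 1 CACGTG and 7 windows held 4 or more. In the Cdkn1b window the capitals mark 1 GC box, GGGCGG, and 2 copies of CCAAT. No printed match overlaps another. A GC box was present in 32.7% and CCAAT in 33.8% of all windows, so these matches are common ones. Searches on both strands also covered E2F spellings (TTTCCCGC, TTTCGCGC, TTTGCCGC and TTTGGCGC), the cyclic AMP element TGACGTCA, the AP-1 site TGANTCA, the FOXO site TGTTTAC and TATAAA. An E2F spelling was found in 1 of the 9 member windows, that of Cdk2, against 1.86% of all windows. Cdk6 held 1 E-box and a TATAAA (12.4% of all windows), the first Ccnd3 window held a FOXO site (3.17%), and no member window held the cyclic AMP element (1.55%) or the AP-1 site (6.75%). Such a match describes the letters only and says nothing of binding in these cells.

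Cdk6, the second kinase of the D-type cyclins, lies at chr5:3341485-3531008 on the plus strand and was the lowest of the 10 genes in every group. It measured 3.38, 3.22 and 3.38 FPKM in Unt, 2.15, 2.73 and 2.69 in DOX, 3.5, 3.07 and 3.33 in D_DXZ and 2.35, 1.35 and 1.5 in D_MgHCF. D_DXZ overlapped Unt, while DOX and D_MgHCF lay below Unt in every library. Against Unt it differed on the log2 scale by -0.30 ± 0.147 (SE) in DOX and -0.68 in D_MgHCF. Cdk4 supplied 97.1 ± 0.203% (SD, n = 3) of the summed FPKM of the 2 kinases in Unt, 99.3 ± 0.0233% in DOX and 97.9 ± 0.308% in D_MgHCF.

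Cdkn2c, the INK4 inhibitor of those kinases, lies at chr4:109660876-109667189 on the minus strand. Its FPKM was 31.0, 32.3 and 34.4 in Unt, 17.6, 15.4 and 14.3 in DOX, 17.3, 17.0 and 13.9 in D_DXZ and 60.2, 54.1 and 26.6 in D_MgHCF. DOX and D_DXZ overlapped each other and lay below Unt in every library. In D_MgHCF replicates 1 and 2 lay above the Unt range and replicate 3 below it. The log2 difference from Unt was -1.0 ± 0.247 (SE) in DOX, -0.98 in D_DXZ and 0.44 in D_MgHCF, the last becoming 0.79 without D_MgHCF replicate 3 and then passing the threshold used across all genes. Against DOX, D_MgHCF was 1.44 higher with all libraries and 1.80 higher without that replicate.

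In DOX and D_DXZ Cdk4 and Cdkn2c stood on opposite sides of Unt with the deposited scaling, and their ratio within a library changed more than either gene. It was 3.41 ± 0.0564 (SD, n = 3) in Unt, 23.2 ± 5.45 in DOX, 18.0 ± 3.55 in D_DXZ and 1.83 ± 0.582 in D_MgHCF. The 4 groups fell into 3 separate ranges, with DOX and D_DXZ overlapping. The ratio of Ccnd1 to Cdk4, both higher in DOX, went from 0.454 ± 0.0397 in Unt to 0.652 ± 0.0162 in DOX and 0.242 ± 0.0291 in D_MgHCF.

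Ccne1, the E-type cyclin that opens S phase with Cdk2, lies at chr7:38097984-38107534 on the minus strand. It measured 5.60, 5.93 and 7.01 FPKM in Unt, 5.02, 4.86 and 4.81 in DOX, 6.86, 3.93 and 6.10 in D_DXZ and 9.01, 13.5 and 7.79 in D_MgHCF. D_MgHCF was above Unt and DOX in every library, by 0.60 ± 0.206 (SE) and 0.88 on the log2 scale, and by 0.75 and 1.03 without D_MgHCF replicate 3. It is also the gene with the fewest reads among the 10, down to 137 in a library, and its call against Unt was lost in 9 of the 12 fits that left out 1 library, over which the difference was 0.39 to 0.75.

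Ccne2, its close relative, lies at chr4:11191351-11204779 on the plus strand. Its mean was 6.02 ± 1.23 FPKM in Unt, 4.14 ± 0.329 in DOX, 4.46 ± 0.451 in D_DXZ and 6.11 ± 1.97 in D_MgHCF (SD, n = 3). The DOX libraries lay below all Unt libraries, and the other 2 groups overlapped Unt. Ints8 on the opposite strand shares 5622 bases of the locus at a similar level, 5.95 FPKM in Unt and 7.84 in DOX, so the Ccne2 values are uncertain. Ccne1 supplied 50.9 ± 8.21% of the summed E-type cyclin FPKM in Unt, 54.2 ± 2.31% in DOX, 55.2 ± 5.67% in D_DXZ and 62.5 ± 6.73% in D_MgHCF, and these spreads overlapped.

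Cdk2, the kinase of the E-type cyclins, lies at chr10:128697939-128705031 on the minus strand. It measured 14.3, 14.7 and 14.6 FPKM in Unt, 10.4, 10.9 and 10.1 in DOX, 11.3, 13.0 and 12.1 in D_DXZ and 5.46, 8.71 and 11.7 in D_MgHCF. Every treated library was below the Unt range. The 3 D_MgHCF libraries differed from each other by more than DOX differed from Unt. Cdk2 differed from Unt on the log2 scale by -0.43 ± 0.192 (SE) in DOX, -0.24 in D_DXZ and -0.74 in D_MgHCF, and without D_MgHCF replicate 3 the last was -0.97.

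Cdkn1b, the p27 gene, lies at chr6:134920401-134925513 on the plus strand and separated all 4 groups. It measured 14.9, 14.8 and 14.0 FPKM in Unt, 4.49, 3.78 and 3.44 in DOX, 7.27, 6.29 and 5.76 in D_DXZ and 13.5, 12.2 and 12.7 in D_MgHCF. The order of the groups was DOX, D_DXZ, D_MgHCF and Unt from low to high. The log2 difference from Unt was -1.67 ± 0.104 (SE) in DOX, -1.07 in D_DXZ and -0.17 in D_MgHCF. D_MgHCF lay 1.5 above DOX, with or without replicate 3. No gene of the table overlaps the Cdkn1b or Cdkn2c locus.

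The amount of D-type cyclin mRNA per Cdkn1b mRNA therefore differed widely between groups. The summed FPKM of the 3 D-type cyclins was 6.53 ± 0.939 times that of Cdkn1b in Unt (SD, n = 3), 76.6 ± 20.3 times in DOX, 34.5 ± 7.05 times in D_DXZ and 4.39 ± 0.524 times in D_MgHCF. The 4 groups were separate. For Cdk2 the ratio to Cdkn1b was 0.998 ± 0.0451 in Unt, 2.72 ± 0.344 in DOX, 1.91 ± 0.307 in D_DXZ and 0.681 ± 0.262 in D_MgHCF.

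The order of levels in Unt ran from Cdk4 through Ccnd1, Ccnd2, Cdkn2c, Cdkn1b, Cdk2, Ccnd3, Ccne1 and Ccne2 to Cdk6. Neighbours that overlapped in Unt were Ccnd2 with Cdkn2c, Cdkn1b with Cdk2, and Ccne1 with Ccne2. In DOX Cdkn1b dropped to the ninth place, where it overlapped Ccne2. In D_MgHCF Cdkn2c took the second place, although it overlapped Ccnd2 there, and Ccnd1 came after both. From Cdkn1b down to Ccne2, all neighbours in D_MgHCF overlapped.

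Counts of calls, at a Benjamini-Hochberg adjusted p under 0.05 across the 25044 genes tested with limma, are given beside the share of all genes called. In DOX against Unt, Ccnd1, Ccnd2 and Cdk4 were called higher (3 of 10) and Cdkn1b and Cdkn2c lower (2 of 10), where 18.6% of all genes were called higher and 19.9% lower. In D_DXZ against Unt, Ccnd1 and Cdk4 were called higher and Cdkn1b and Cdkn2c lower, against 15.9% and 18.0% of all genes. In D_MgHCF against Unt, Ccne1 was called higher and Ccnd1, Ccnd2, Cdk2, Cdk4 and Cdk6 lower, against 24.3% and 15.7%. In D_MgHCF against DOX, Ccne1, Cdkn1b and Cdkn2c were called higher and Ccnd1, Ccnd2 and Cdk4 lower, against 31.4% and 20.1%. As the genes were selected on these values, nothing is read from the comparison of shares. The median log2 difference of the 10 genes in these 4 comparisons was -0.29, -0.07, -0.26 and -0.27, and over all genes tested it was between 0.00 and 0.07.

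**Figure D3:**
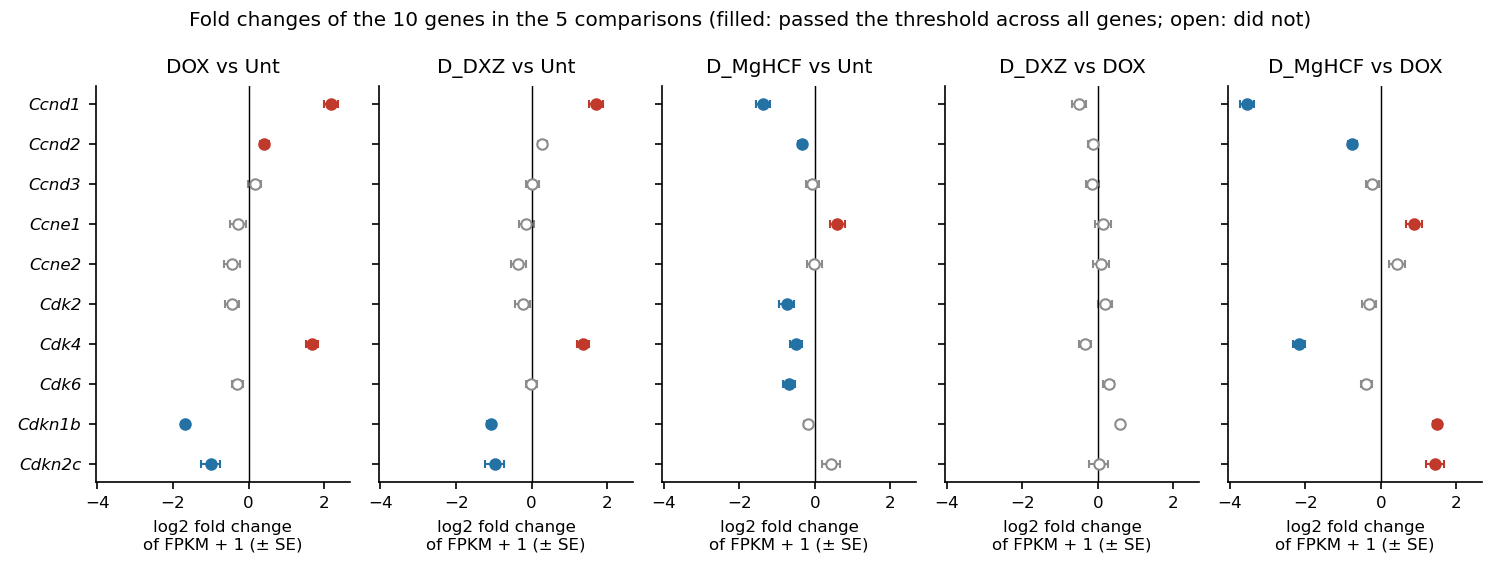
Log2 fold change of FPKM + 1 with its SE for the 10 genes in the 5 comparisons, filled where the gene passed the adjusted threshold across all genes. Ccnd1 has the largest differences upward in DOX (2.19) and downward in D_MgHCF against DOX (-3.55), and no gene is filled in D_DXZ against DOX.

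Some of these calls changed when 1 library was left out, also where that library belonged to neither group compared. In D_MgHCF against Unt, 6 genes were called with all libraries, 6 without D_MgHCF replicate 3 (Cdkn2c at 0.79 in place of Cdk4 at -0.37), 4 without its replicate 1, 3 without its replicate 2, and 3 without Unt replicate 1, 2 or 3. Ccnd2 and Ccne1 each lost the call in 9 of the 12 fits that left out 1 library and Cdk4 in 5, with log2 differences of -0.47 to -0.24, 0.39 to 0.75 and -0.65 to -0.37. Without D_MgHCF replicate 3, 9 of the 10 genes were called in D_MgHCF against DOX, all but Cdk6 (-0.32), adding Ccnd3 (-0.43), Ccne2 (0.68) and Cdk2 (-0.54). That fit also called more of all genes, 57.7% against 51.5% with all libraries, and in D_MgHCF against Unt 50.7% against 40.1%. The Ccnd2 call in DOX was lost without Unt replicate 1 or DOX replicate 3, where its log2 difference lay within 0.36 to 0.47. Against Unt, leaving out D_MgHCF replicate 3 also added calls of Ccne2 (-0.44) and Cdk2 (-0.43) in DOX and of Ccnd2 (0.28) in D_DXZ, and leaving out D_MgHCF replicate 1 added that of Cdk2 in DOX, although these differences do not use the library left out.

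Between D_DXZ and DOX, limma called none of the 10 genes, and none of the 25044 genes tested. At an unadjusted p under 0.05, 1 of the 10 was higher (Cdkn1b) and 1 lower (Ccnd1), where 4.56% and 4.97% of all genes passed. Voom on the recovered reads also called none of the 10 genes. Cdkn1b differed by 0.60 ± 0.104 (SE), with every D_DXZ library above every DOX library. Ccnd1 differed by -0.49 ± 0.185 and Cdk4 by -0.32 ± 0.158, where Ccnd1 did not overlap between the groups and Cdk4 did. In all, 3 of the 10 genes (Cdk2, Cdk6 and Cdkn1b) were higher and 1 lower in every D_DXZ library than in any DOX library. Of all genes tested, 7.66% and 8.64% were so separated, and nothing is read from these counts. The smallest adjusted p of any gene was 0.087 (limma), and a missed threshold does not show that the groups were alike.

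The sizes of these differences depend on how libraries are scaled to each other. The divisor behind the deposited FPKM was 1.32 to 1.38 times the summed reads in Unt and 1.26 to 1.43 times in D_MgHCF, but 0.647 to 0.784 times in DOX and 0.747 to 0.892 times in D_DXZ. That scaling left the median of the 11515 genes with a mean of at least 1 FPKM at 0.05 in DOX against Unt. Rescaled to a fixed total per library (TPM), this median shifted to -1.18, and per summed reads to -0.69. In D_MgHCF against DOX it shifted to 0.99 and 0.67.

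Relative to the median gene, Ccnd1 in DOX stood at 2.14 with the deposited scaling, 2.02 as TPM and 1.94 per summed reads, and Cdk4 at 1.63, 1.49 and 1.42. Cdkn1b stood at -1.72, -1.92 and -1.78 on the same 3 scales. Taken as they are, the TPM values put Ccnd1 at 0.84, Cdk4 at 0.32 and Cdkn1b at -3.09, so these 3 kept their direction. Ccnd2 in DOX was 0.41 with the deposited scaling but -0.93 as TPM and -0.51 per summed reads, while relative to the median gene it stood at 0.37, 0.24 and 0.18. After quantile normalization it was -0.51, or -0.54 relative to the median gene, so its direction depends on the scaling. Ccnd2 in D_DXZ against Unt went from 0.28 to -0.45 in the same way. After quantile normalization, which forces the same distribution on every library, Ccnd1 stood at 0.77 in DOX and 0.58 in D_DXZ, and Cdk4 at 0.02 in DOX, as its rank had not moved, and at -0.03 in D_DXZ.

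**Figure D4:**
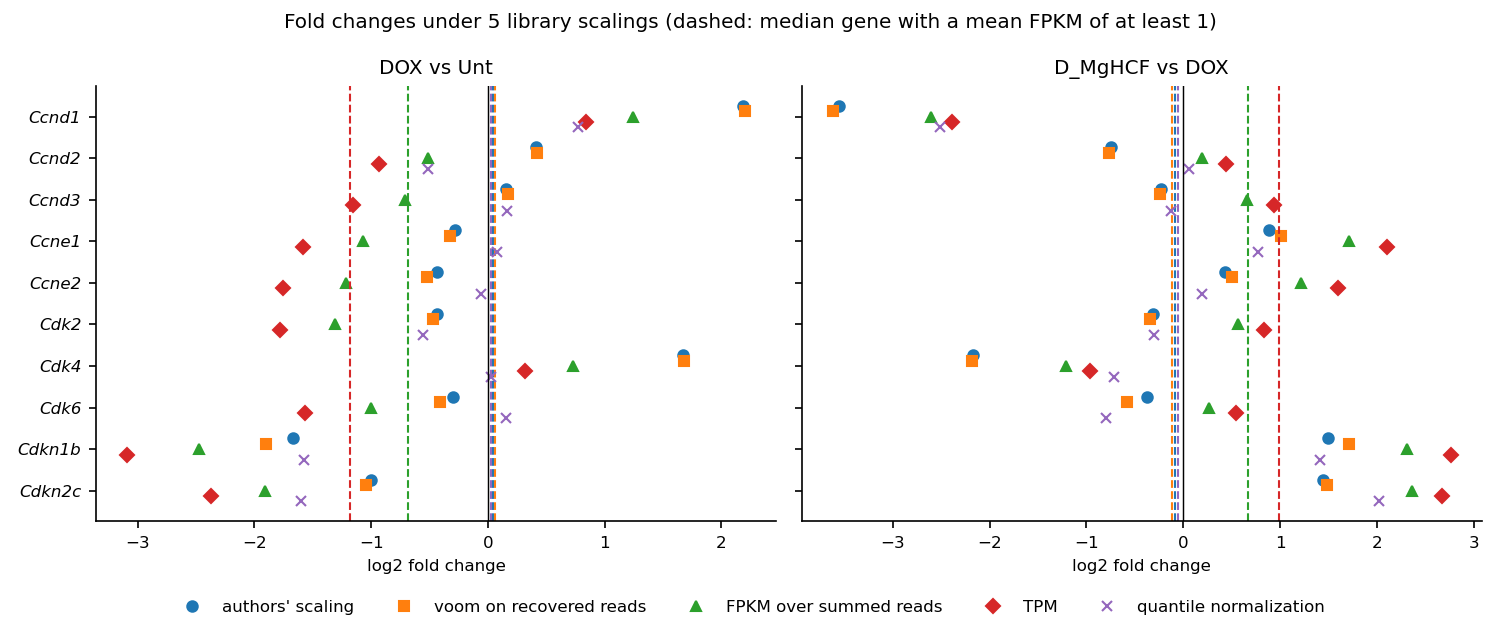
Log2 fold change of the 10 genes under 5 library scalings, one marker shape for each, in DOX against Unt (left) and D_MgHCF against DOX (right), with dashed lines at the median gene under each scaling. Ccnd1 stays above 0 on the left under all 5 scalings and Cdkn1b below it, whereas Ccnd2 lies at 0.41 under the deposited scaling and at -0.93 as TPM.

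The split of calls among the 10 genes moved with the scaling. In DOX against Unt it was 3 higher and 2 lower with the deposited scaling, 2 and 8 as TPM or per summed reads, and 1 and 3 after quantile normalization. Over all genes the share of calls that were higher went from 48.3% to 9.80% as TPM. In D_MgHCF against DOX the 10 genes split as 3 and 3 with the deposited scaling and as 8 and 2 as TPM, where the share of higher calls over all genes went from 61.0% to 88.9%. Genes not called with the deposited scaling were among those that changed side: Ccnd3 went from 0.16 to -1.15 in DOX against Unt, and Ccnd3, Cdk2 and Cdk6 went from -0.23, -0.31 and -0.38 to 0.94, 0.84 and 0.54 in D_MgHCF against DOX. In D_MgHCF against Unt, where the TPM median was -0.23, the 10 genes split as 1 and 5 with the deposited scaling and 0 and 5 as TPM, and the share of higher calls over all genes was 60.7% and 58.0%.

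Around these 10 genes, a fixed list of 48 others from the G1/S network and the later cyclins was tested with limma, and 45 passed the filter on low values. Skp2, the F-box protein that targets p27, was listed at 0 in every library, and Ccna1 and Ccnb3 had reads in fewer than 3 libraries. In DOX against Unt, 12 of 45 rose and 24 fell, where 18.6% and 19.9% of all genes did, with a median log2 difference of -0.64 for the list and 0.05 for the genes with a mean of at least 1 FPKM. In D_DXZ against Unt the counts were again 12 and 24, where 15.9% and 18.0% of all genes rose and fell. In D_MgHCF they were 6 and 19 against Unt (all genes 24.3% and 15.7%) and 22 and 16 against DOX (31.4% and 20.1%). These shares of all genes also stand beside the counts by role below. As TPM the counts were 3 and 31 in DOX, 3 and 32 in D_DXZ and 31 and 8 in D_MgHCF against DOX, and per summed reads 8 and 29, 8 and 30, and 30 and 10. Of all genes called as TPM, 9.80% were higher in DOX, 8.30% in D_DXZ and 88.9% in D_MgHCF against DOX, and per summed reads 20.0%, 19.4% and 83.8%. On these 2 scales the splits in DOX and D_DXZ against Unt were near those of all genes. In D_MgHCF against DOX, 79.5% and 75% of the called network genes were higher. With the deposited scaling, 33.3% were higher in DOX and 33.3% in D_DXZ against Unt, where 48.3% and 46.8% of all genes called were. In D_MgHCF against DOX the deposited scaling gave 57.9%, and 61.0% over all genes. In D_MgHCF against Unt, 24% of the called network genes were higher with the deposited scaling and 20% as TPM. Of all genes called there, 60.7% and 58.0% were higher. That share includes low genes: with the stricter filter of at least 1 FPKM, 3064 genes were called higher in place of 6096. The network genes were not set beside genes of a like level. After quantile normalization the network share was 30% in DOX, 24% in D_MgHCF against Unt and 61.3% against DOX. Over all genes it was 49%, 47.9% and 48.5%. Without D_MgHCF replicate 3 the counts in D_MgHCF were 6 and 22 against Unt (all genes 32% and 18.7%) and 23 and 17 against DOX (36.5% and 21.2%). In that fit the log2 differences of Cdkn1a, E2f2 and Myc from Unt described below became 2.69, 1.75 and -0.90 and that of Cdkn2a from DOX -1.71. Without Unt replicate 1, 2 or 3, the genes higher in D_MgHCF against Unt numbered 3.

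**Figure D5:**
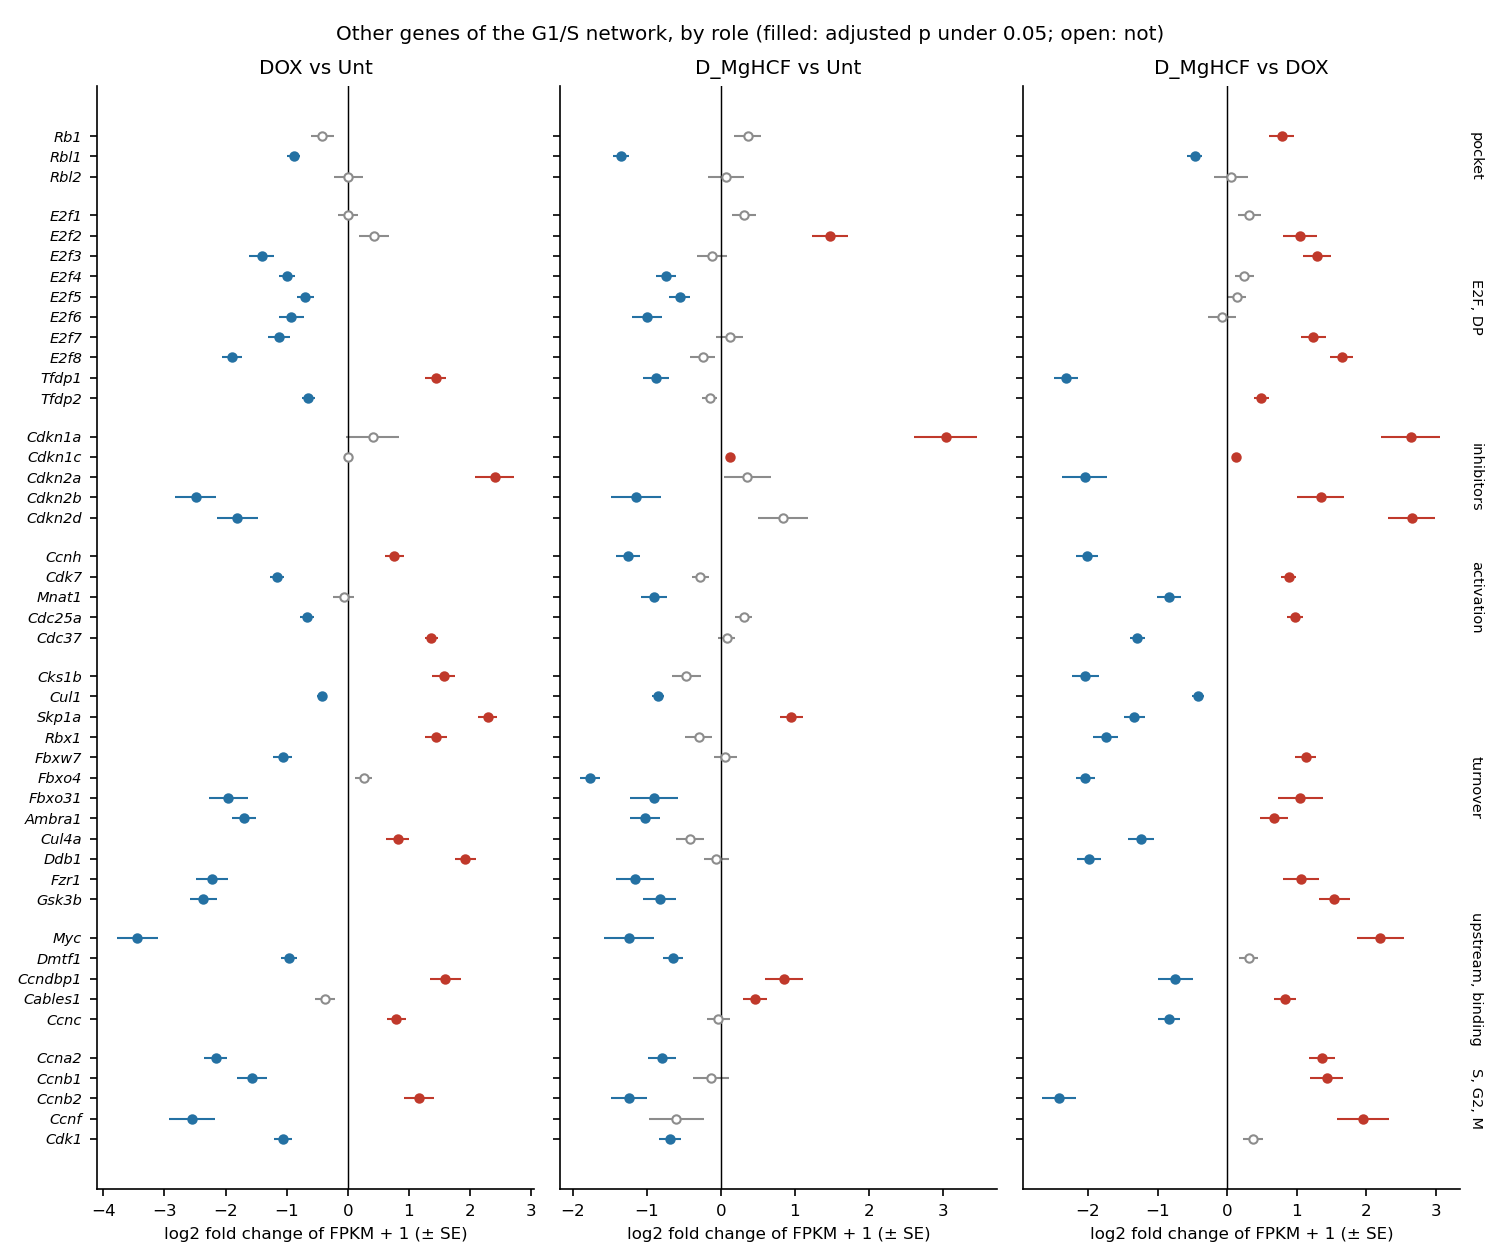
Log2 fold change of FPKM + 1 with its SE for the 45 tested genes of the network, grouped by role, in 3 comparisons with separate horizontal axes; filled points passed an adjusted p of 0.05. Myc and most E2F genes lie left of 0 in DOX against Unt, and Cdkn1a lies at 3.04 in D_MgHCF against Unt.

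Among the targets of the G1 kinases, Rb1, the retinoblastoma gene itself, measured 3.56, 3.25 and 3.08 FPKM in Unt, 2.50, 2.40 and 1.80 in DOX and 3.55, 4.09 and 6.28 in D_MgHCF. It did not pass in DOX (log2 difference -0.42, adjusted p = 0.107) or D_DXZ (-0.51, adjusted p = 0.0563), but the DOX value did without D_MgHCF replicate 3 (adjusted p = 0.0262) and as TPM (-1.70, adjusted p = 0.000638), and stood at 0.05 after quantile normalization. Among the 12 fits that left out 1 library, the D_DXZ value passed in 2, without D_MgHCF replicate 1 (adjusted p = 0.0369) or replicate 3 (adjusted p = 0.0106). It also passed as TPM (-1.665, adjusted p = 0.000814) and per summed reads (-1.06, adjusted p = 0.00304), but not after quantile normalization. With the deposited scaling it passed with only 2 groups (adjusted p = 0.0203), voom (adjusted p = 0.0395), another pseudocount (adjusted p = 0.0396) or a stricter filter (adjusted p = 0.0232). Rb1 was 0.78 higher in D_MgHCF than in DOX (adjusted p = 0.00504), and 0.40 higher after quantile normalization, which did not pass (adjusted p = 0.118). Rbl1, its relative p107, fell by 1.35 in D_MgHCF against Unt (adjusted p = 2.6e-05).

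Of the 10 E2F and DP factors, 1 rose and 7 fell in DOX, 1 and 7 in D_DXZ, and 1 and 4 in D_MgHCF, all against Unt. E2f1, an activator of S-phase genes, measured 29.2, 28.7 and 29.8 FPKM in Unt and 30.1, 28.3 and 29.3 in DOX. Its log2 difference in DOX was 0.00 (adjusted p = 1) with the deposited scaling but -1.35 as TPM (adjusted p = 0.000315), -0.92 per summed reads and -0.75 after quantile normalization. In D_MgHCF against DOX it was 0.32 (adjusted p = 0.133), and 0.47 without D_MgHCF replicate 2 (adjusted p = 0.0363). It passed there as TPM (1.526, adjusted p = 0.000134), per summed reads (1.255, adjusted p = 0.000157) and after quantile normalization (1.113, adjusted p = 0.000942). The median gene with a mean of at least 1 FPKM stood at 0.99, 0.67 and -0.06 on these 3 scales. E2f2, another activator, rose by 1.48 in D_MgHCF against Unt (adjusted p = 0.00117), with 13.7, 8.67 and 5.82 FPKM in D_MgHCF and 2.43, 2.59 and 2.64 in Unt. Tfdp1, the partner of the E2F factors, was the one that rose in DOX (1.44, adjusted p = 8.31e-05, and 0.09 as TPM, adjusted p = 0.813). It fell by 2.32 in D_MgHCF against DOX (adjusted p = 5.88e-06).

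Other CDK inhibitors differed in direction from each other. Cdkn2a, which encodes p16 and p19ARF, measured 371, 393 and 403 FPKM in Unt, 1655, 2286 and 2325 in DOX and 775, 512 and 311 in D_MgHCF. It rose by 2.41 in DOX (adjusted p = 0.000158) and by 2.14 in D_DXZ (adjusted p = 0.000523) against Unt, and fell by 2.05 in D_MgHCF against DOX (adjusted p = 4e-04). Cdkn2b, which encodes p15, fell by 2.49 in DOX (adjusted p = 0.00017), from 22.3, 22.9 and 23.3 FPKM to 4.73, 2.74 and 2.54. Cdkn2d, which encodes the INK4 protein p19, fell by 1.81 in DOX (adjusted p = 0.00128) and fell by 2.10 in D_DXZ (adjusted p = 0.000716) against Unt, and was 2.65 higher in D_MgHCF than in DOX (adjusted p = 9.7e-05).

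Cdkn1a, which encodes p21, an inhibitor of cyclin-Cdk2 complexes, measured 8.37, 7.81 and 8.76 FPKM in Unt, 23.8, 9.05 and 6.49 in DOX, 4.01, 5.70 and 3.23 in D_DXZ and 50.02, 69.4 and 124 in D_MgHCF. The DOX libraries disagreed, and its difference from Unt did not pass (0.40, adjusted p = 0.571). It rose by 3.04 in D_MgHCF against Unt (adjusted p = 0.000442) and was 2.64 higher than in DOX (adjusted p = 0.000491). All 3 D_MgHCF libraries lay above every other library. In D_DXZ the difference from DOX was -1.24 with an adjusted p of 0.428. Every D_DXZ library lay below the Unt range, but the difference from Unt did not pass (-0.83, adjusted p = 0.179), nor with any library left out. It passed as TPM (-2.04, adjusted p = 0.00778), per summed reads (-1.486, adjusted p = 0.028) and with only those 2 groups in the fit (adjusted p = 0.0163). The median gene there stood at -1.10 as TPM and -0.62 per summed reads. Of the 5 inhibitors on this list, Cdkn1c was at or under 0.19 FPKM in every library, although it counts among the 6 genes higher in D_MgHCF against Unt.

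Genes that act on the stability of cyclins and inhibitors split in DOX, with 5 rising and 6 falling of the 12 tested. Skp1a, a subunit of SCF ubiquitin ligases, rose by 2.29 in DOX (adjusted p = 1.09e-05) and by 1.99 in D_DXZ (adjusted p = 5.59e-05). Fzr1, the APC/C activator that works in G1, fell in all 3 treated groups against Unt, with log2 differences of -2.23 in DOX (adjusted p = 6.74e-05), -1.95 in D_DXZ (adjusted p = 0.000271) and -1.16 in D_MgHCF (adjusted p = 0.00591). Gsk3b, a kinase that marks cyclin D1 for destruction, fell by 2.36 in DOX (adjusted p = 2.16e-05) and fell by 1.63 in D_DXZ (adjusted p = 0.000308). Fbxo4, an F-box protein linked to cyclin D1, fell by 1.77 in D_MgHCF against Unt (adjusted p = 2.24e-05). Cks1b, a cofactor for p27 destruction, rose by 1.57 in DOX against Unt (adjusted p = 9.06e-05, and 0.21 as TPM, adjusted p = 0.103) and fell by 2.04 in D_MgHCF against DOX (adjusted p = 1.78e-05).

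Upstream, Myc, a transcription factor that drives cell growth, had the largest fall among the named network genes in DOX. Its FPKM was 62.8, 72.1 and 71.3 in Unt, 7.42, 5.25 and 3.98 in DOX, 20.2, 14.9 and 9.67 in D_DXZ and 44.9, 29.5 and 17.1 in D_MgHCF. The log2 difference from Unt was -3.44 in DOX (adjusted p = 2.7e-05), -2.18 in D_DXZ (adjusted p = 0.00063) and -1.24 in D_MgHCF (adjusted p = 0.0157). The Cdk4 promoter shown above carries 4 copies of the letters that Myc can bind, and in DOX Myc stood below Unt and Cdk4 above it, while in D_MgHCF both stood below Unt; no relation between them was tested. Of the CDK-activating kinase, phosphatase and chaperone genes, 2 of 5 rose and 2 fell in DOX, and Ccnh, the cyclin of the activating kinase, fell by 1.25 in D_MgHCF against Unt (adjusted p = 0.000264).

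Of the later cyclins and their kinase, 1 of the 5 tested genes rose and 4 fell in DOX and in D_DXZ. Ccna2, the S-phase cyclin, measured 37.4, 38.1 and 35.5 FPKM in Unt, 9.03, 6.85 and 6.80 in DOX, 17.5, 12.1 and 10.9 in D_DXZ and 16.3, 23.4 and 23.8 in D_MgHCF. On the log2 scale it differed from Unt by -2.16 in DOX (adjusted p = 1.55e-05), -1.42 in D_DXZ (adjusted p = 0.000265) and -0.80 in D_MgHCF (adjusted p = 0.00772). D_DXZ was 0.74 above DOX, which did not pass (adjusted p = 0.278). Ccnf, the F-box protein cyclin F, fell by 2.55 in DOX (adjusted p = 0.000297) and fell by 2.04 in D_DXZ (adjusted p = 0.00172). Ccnb2, a mitotic cyclin, rose by 1.17 in DOX against Unt with the deposited scaling (adjusted p = 0.00279) but was -0.17 as TPM (adjusted p = 0.566). It fell by 1.25 in D_MgHCF against Unt (adjusted p = 0.00283) and fell by 2.41 in D_MgHCF against DOX (adjusted p = 2.52e-05). Between D_DXZ and DOX none of the 45 genes passed with limma, and 8 were higher and 3 lower at an unadjusted p under 0.05.

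The genes most like 4 of the 10 in pattern were found by Pearson correlation of log2(FPKM + 1) over the 12 libraries among 6883 genes with a mean of at least 5 FPKM. The 12 libraries fall into 4 groups, so these values describe the shared group pattern only. Ccnd1 was closest to Ran (r = 0.998) and Phb (r = 0.998), a nuclear transport GTPase and a mitochondrial scaffold protein. Ran averaged 237 FPKM in Unt, 726 in DOX, 606 in D_DXZ and 116 in D_MgHCF. Cdk4 was closest to Gnpat (r = 0.999) and Ppp2r1a (r = 0.998), the latter a scaffold subunit of protein phosphatase 2A that averaged 85.0 FPKM in Unt and 312 in DOX. Cdkn1b was closest to Ppp1r15b (r = 0.991), which averaged 32.0 FPKM in Unt, 5.23 in DOX, 9.97 in D_DXZ and 23.6 in D_MgHCF, and to Ppp6r3 (r = 0.988). For Ccne1 the nearest genes, Snx25 and Chchd7, were less close (r = 0.918 and 0.902).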

How the data were processed

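The 12 poly(A)-selected libraries were sequenced in paired reads of 150 bases. The authors deposited 1 table of FPKM per gene, made from reads aligned to mouse GRCm38 with HISAT2 2.0.5 per the submitters' processing notes. The counting program and annotation release are not given in the sources used here, and the kit named does not mark strand. Gene coordinates matched GENCODE M21 for all 10 genes. FPKM times gene length gave whole reads for 100% of values within 0.1 of a read; these reads were used only for depth and for 1 alternative.

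Genes above 0 FPKM in at least 3 libraries (25044 of 54345) were fitted with limma 3.58.1 on log2(FPKM + 1), all 12 libraries in 1 fit without covariates, with Benjamini-Hochberg adjustment and calls at 0.05, two-sided. A fold change on this scale understates that of low genes. Labels do not say that libraries came from separate cultures, so p-values measure only the spread between these samples, which may be technical. The 10 genes, the network list and the markers were chosen with earlier results of these data known. Named network genes were drawn from Rb1, E2f1, Cdkn1a and Ccna2 and, per comparison, the 8 called genes with the largest change and a mean of at least 1 FPKM. A gene so chosen is also given in other comparisons, and not every chosen value is printed. Skp2, Ccna1, Ccnb3 and Cdkn1c were named for their low values. The 2 nearest genes by pattern were named for 4 members. Alternatives were another pseudocount (0.1), filters, library scalings (TPM, summed reads, quantile), voom, 2 groups only, a replicate block, other call rules and each library left out. The fit was tested on simulated data with few changed genes and the deposited library divisors taken as true, so the scaling was not tested by it.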

Additional observations from a re-analysis of the deposited data

How the results depend on the processing

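The count of called members in DOX against Unt was 8 with only those 2 groups in the fit, and 10 as TPM and 10 per summed reads, where 44.6%, 45.3% and 41.4% of all genes were called against 38.4%. In D_DXZ against Unt it was 9 as TPM and 10 per summed reads (all genes 43.9% and 39.4%, against 33.9%), and in D_MgHCF against DOX 10 as TPM (60.7%, against 51.5%). In D_MgHCF against Unt it was 2 with only 2 groups and 1 with a 2-fold minimum (24.8% and 11.2%, against 40.1%). Between D_DXZ and DOX, 2 members passed at an unadjusted p. Network genes called higher numbered 3 as TPM in DOX and 3 in D_DXZ against Unt, and those lower in D_MgHCF against DOX 8 as TPM and 10 per summed reads. With a 2-fold minimum, 11 network genes were lower in D_DXZ against Unt, and 2 were higher and 8 lower in D_MgHCF against Unt. At an unadjusted p, 8 were higher and 3 lower in D_DXZ against DOX. Among called values and E2f1, Ccnd2 changed sign in DOX against Unt (-0.93 as TPM, -0.51 after quantile normalization, -0.51 per summed reads) and in D_MgHCF against DOX (0.441 as TPM, 0.0615 after quantile normalization and 0.192 per summed reads), E2f1 in DOX against Unt (-1.35, -0.75 and -0.92) and Cdk4 in D_DXZ against Unt after quantile normalization (-0.0336), beside uncalled members given above; the cause was not tested. With each library left out in turn, network genes higher in D_MgHCF against Unt numbered 3 to 6 and members called there 3 to 6. Deviations of same-numbered samples correlated at -0.314 to 0.306, with 2 of 18 over 0.1. Both were between DOX and D_DXZ, at 0.306 for replicate 1 and 0.22 for replicate 3, while replicate 2 was at 0.0334. Numbers were not taken as pairs in the main fit. With a replicate block, 5 members were called in DOX against Unt, 4 in D_DXZ and 4 in D_MgHCF, and 12 network genes were higher and 24 lower in DOX. Depth limits Ccne1, Ccne2 and Cdkn1b most, with as few as 137, 164 and 181 reads in a library.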
